A study of Mus musculus with 65 samples.

Results

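Nkx6-1 and Nkx6-2 are related genes that encode homeodomain transcription factors of the ventral neural tube, and they are described here across all cell types, days and SAG concentrations of the series. They were taken by symbol from the table of normalised reads, as 2 of its 25239 genes, and both passed the filter on low values (a mean of at least 10 normalised reads over the libraries). The libraries were made from HM1 mouse embryonic stem cells differentiated to neuromesodermal progenitors (NMPs, sampled on day 3) and then given retinoic acid with 0, 10, 100 or 500 nM of SAG, an agonist of Smoothened that stands in for Sonic hedgehog (Shh). Cells of days 4, 5 and 6 were fixed, stained and sorted on SOX2 and then as p3 (NKX2.2+ OLIG2-), pMN (OLIG2+), p2 (PAX6+ NKX6.1+) or p0-1 (PAX6+ NKX6.1-, p0 and p1 collected together). All 65 libraries in 25 groups came from the same cell line, and a replicate was an independent differentiation.

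The libraries of p0-1 were made at 0 nM SAG (2 on day 4, 3 on day 5, 3 on day 6) and at 10 nM (3 on each day). Those of p2 were made at 10 nM (1, 3 and 3 on the successive days) and 100 nM (2, 3 and 3). For pMN there were 2, 3 and 3 libraries at 100 nM and 2, 3 and 2 at 500 nM, and for p3 there were 1, 3 and 3 at 100 nM and 3, 3 and 2 at 500 nM. The NMPs, which had received no SAG, gave 3 libraries. Dose and cell type are partly tied by this layout, since p0-1 was never sampled at 100 nM nor p3 at 10 nM.

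In the neural tube, progenitors are arranged along the dorsoventral axis in domains that each form their own neurons. The Nkx6 proteins act mainly as repressors. They bind DNA through their homeodomain, recruit Groucho corepressors, keep the programmes of more dorsal progenitors off and permit Olig2 expression and motor neuron formation. Nkx6-1 is known from p3, pMN and p2, with its dorsal limit at the border of p2 and p1. Nkx6-2, also called Gtx, is known from embryos to reach further dorsally, into p1, and it later acts in oligodendrocytes.

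Both genes lie on the minus strand of the mm10 assembly. Nkx6-1 has 1 transcript in the deposited annotation, on chromosome 5 from 101659197 to 101664711, with 1795 exonic bases that no other gene shares. Nkx6-2 has 2 transcripts, on chromosome 7 from 139579376 to 139582797, with 1907 exonic bases. Of these, 246 bases (12.9%), the last exon of its non-coding transcript, overlap an exon of Inpp5a on the opposite strand. Whether reads were counted by strand is not stated. Levels of the 2 genes are compared below per kilobase of exon.

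The second exon, which is coding in both genes and holds the first part of the homeobox, is shown because it is where the paralogs are most easily confused. It has 173 bases in each, at chr5:101661834-101662006 and chr7:139581881-139582053. The sequences come from the GENCODE transcripts and are given from 5′ to 3′ on the minus strand, with the bases that differ between the genes in capitals.
Nkx6-1: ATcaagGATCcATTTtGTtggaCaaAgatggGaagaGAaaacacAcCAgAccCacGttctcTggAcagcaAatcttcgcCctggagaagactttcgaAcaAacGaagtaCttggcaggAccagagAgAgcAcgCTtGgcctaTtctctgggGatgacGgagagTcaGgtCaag
Nkx6-2: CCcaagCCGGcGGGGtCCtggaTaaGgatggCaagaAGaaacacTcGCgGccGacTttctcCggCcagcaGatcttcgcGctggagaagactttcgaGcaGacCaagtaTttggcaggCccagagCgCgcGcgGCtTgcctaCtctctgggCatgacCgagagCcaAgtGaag
The exons were identical at 129 of 173 bases (74.6%) and differed at 44. The longest run of identical bases was 17, both in this exon and between the complete protein-coding transcripts of 3138 and 1299 bases. A longer read therefore meets at least 1 differing base.

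The 250 bases before each transcription start are given to show how far the promoters resemble each other. They were taken from RefSeq (GRCm38.p6, the same assembly as mm10), at chr5:101664712-101664961 and chr7:139582798-139583047, on the minus strand, and both genes were matched by symbol. Capitals mark the homeodomain core TAAT or its reverse complement ATTA.
Nkx6-1: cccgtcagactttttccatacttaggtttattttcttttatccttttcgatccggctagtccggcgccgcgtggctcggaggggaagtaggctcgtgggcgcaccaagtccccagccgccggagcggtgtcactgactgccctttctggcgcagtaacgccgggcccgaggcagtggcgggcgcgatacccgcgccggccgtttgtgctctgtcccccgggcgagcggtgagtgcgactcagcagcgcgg
Nkx6-2: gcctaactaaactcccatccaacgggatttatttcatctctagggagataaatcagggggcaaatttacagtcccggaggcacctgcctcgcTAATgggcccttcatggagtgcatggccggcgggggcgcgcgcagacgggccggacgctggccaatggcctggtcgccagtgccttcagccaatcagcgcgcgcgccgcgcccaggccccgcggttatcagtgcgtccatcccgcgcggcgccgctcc
Both windows held 65.2% G and C, against a median of 52.4% over 32851 promoters of the same length. They held 30 CpG dinucleotides for Nkx6-1 and 26 for Nkx6-2, against a median of 6. The core was found 1 time before Nkx6-2 and 0 times before Nkx6-1, and 54.9% of all promoters held it. CCAAT, on either strand, was found 2 times before Nkx6-2 and 0 times before Nkx6-1, with 33.8% of all promoters holding it. The GLI site GACCACCCA was in neither window, as in all but 0.225% of promoters. These matches describe letters in short windows and were not tested as sites.

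The libraries held 7615114 to 13484815 reads assigned to genes, with 9718 to 15963 genes detected. RNA of the sort markers followed the sort on days 5 and 6. In p3, Nkx2-2 averaged 254.8 ± 90.9 normalised reads (SD, n = 11), against at most 98.1 in any pMN library. Olig2 had 3574 ± 1322 (SD, n = 11) in pMN, but p3 also held 823.3 ± 489 (SD, n = 11) and p2 held 423.1 ± 516 (SD, n = 12). Dbx1, a marker of p0, had 2263 ± 880 (SD, n = 12) in p0-1. The 4 p3 libraries of day 4 had 9718 to 13004 genes detected (median 12605), against 11416 to 14433 (median 13766.5) in the other 12 libraries of that day. Only p3 at 100 nM, replicate 3, with 9718, lay outside the range of the others. Results that rest on the 4 p3 libraries are given with this in mind and with single libraries left out.

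To ask where Nkx6-1 was expressed once the domains had formed, the cell types were compared over days 5 and 6. Nkx6-1 was present at similar levels in p3, pMN and p2 and close to absent in p0-1. In p3 its lowest, median and highest normalised reads were 361, 565 and 893 (mean 591.2 ± 184, SD, n = 11). In pMN they were 252, 468 and 796 (492.0 ± 170, SD, n = 11), and in p2 they were 134, 331 and 702 (361.9 ± 160, SD, n = 12). The p0-1 libraries ran from 0 to 67.5 with a median of 0 (9.633 ± 21.3, SD, n = 12), and 7 of the 12 held no read. No p3, pMN or p2 library reached down to the p0-1 values.

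Each difference is given as a log2 change of (normalised reads + 1) between averages of group means, fitted with limma across 13964 genes, and is said to be called where the p adjusted after Benjamini and Hochberg was below 0.01 and the change over 2-fold. Against p0-1, Nkx6-1 was higher by 7.72 in p3 (SE 0.50, limma adjusted p = 2.19e-16), by 7.45 in pMN (SE 0.50, adjusted p = 1.24e-15) and by 6.95 in p2 (SE 0.48, adjusted p = 8.37e-15), in all libraries of each. The share of all genes called was 1.43%, 0.96% and 0.322% in these comparisons, which share their p0-1 libraries. Because NKX6.1 protein defined the gate between p2 and p0-1, these values check the sort at the level of RNA and are no independent finding. The gate did not separate p3, pMN and p2 by NKX6.1, although only p2 was selected as NKX6.1+, and among these no difference was called. The changes were 0.27 between p3 and pMN (95% interval -0.76 to 1.30, limma adjusted p = 0.899, 0.695% of genes called), 0.77 between p3 and p2 (-0.23 to 1.77, adjusted p = 0.452, 1.27% called) and 0.50 between pMN and p2 (-0.50 to 1.50, adjusted p = 0.794, 0.107% called). All 11 p3 libraries lay above the p2 median, and the ranges overlapped. A step of over 2-fold between p3 and pMN lies within its interval.

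**Figure D1:**
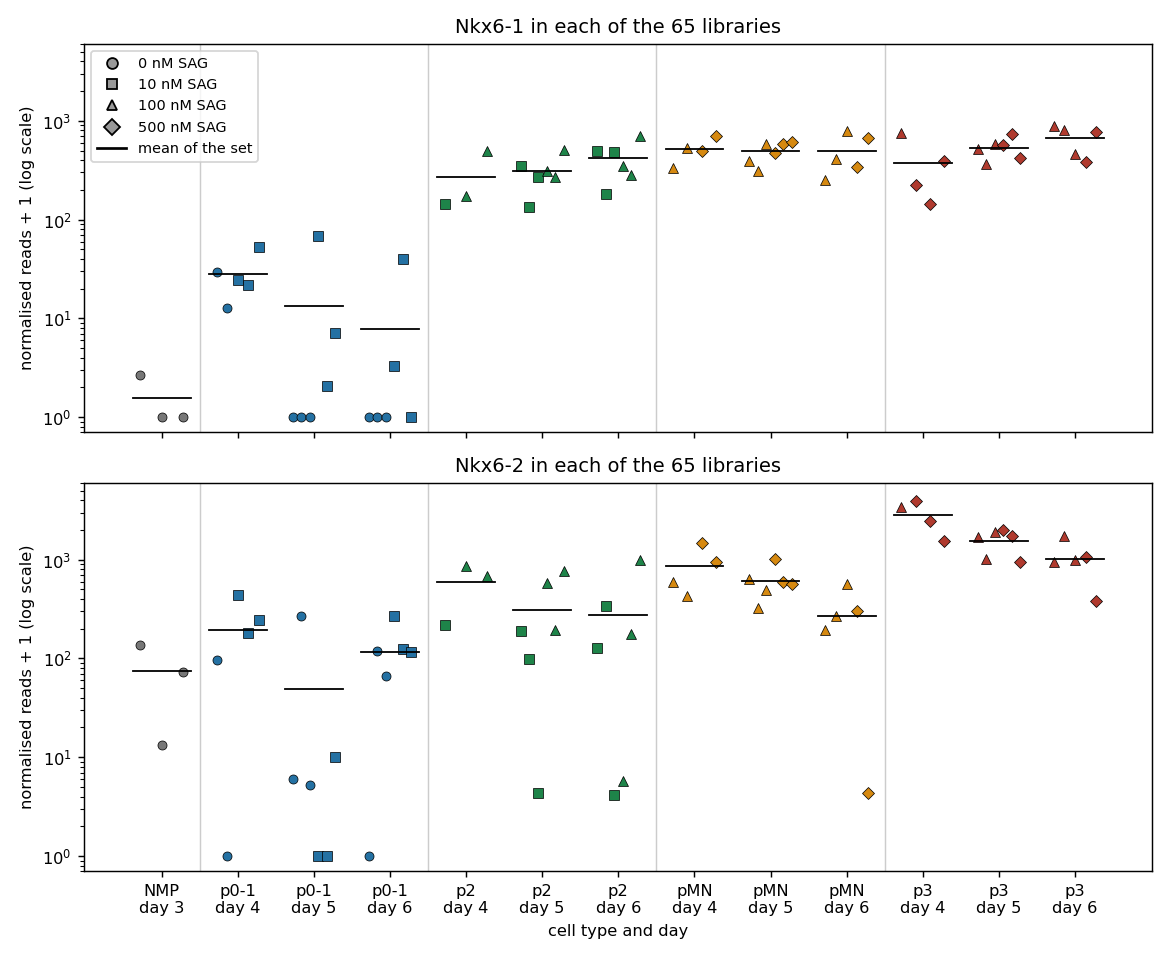
Normalised reads + 1 (log scale) of Nkx6-1 (top) and Nkx6-2 (bottom) in each library, by cell type and day, with symbols for the SAG concentration and a line at the mean of each set. Nkx6-1 separates p0-1 (highest 67.5 after day 4) from all other sorted types, whereas Nkx6-2 is highest in p3 and scatters down to 3.19 in p2.

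Nkx6-2, which was not used in the sort, had means in the same order as Nkx6-1, from p3 down through pMN and p2 to p0-1. None of its steps between neighbouring types was called, and at 100 nM pMN and p2 had no set order, as given below. It was highest in p3, where its lowest, median and highest normalised reads were 382, 1069 and 1999 (mean 1308 ± 516, SD, n = 11). In pMN the values were 3.30, 495 and 1025 (451.9 ± 275, SD, n = 11), and 10 of 11 p3 libraries lay above the pMN median. In p2 they were 3.19, 181 and 998 (290.2 ± 325, SD, n = 12), so that p2 overlapped both p0-1 and pMN over much of their ranges. In p0-1 they were 0, 37.5 and 268 (81.36 ± 100, SD, n = 12). The p3 libraries did not overlap those of p0-1 and overlapped those of pMN and p2. In these bulk libraries, a lower level can come from fewer expressing cells or from less RNA per cell, and these cannot be told apart.

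The step from p0-1 to p3 was the firmest for Nkx6-2, at 5.88 (SE 0.85, limma adjusted p = 3.27e-06) in all 11 p3 libraries, and it kept its call in every alternative run. Between p3 and p2 the change was 3.47 (SE 0.85, limma adjusted p = 0.00991) and between pMN and p0-1 it was 3.67 (SE 0.85, adjusted p = 0.00781). Both were just past the threshold. The first was lost in 20 of 23 fits without 1 library, with adjusted p from 0.00321 to 0.0392, and the second in 17 of 23, with adjusted p from 0.00154 to 0.0784. The neighbouring steps were not called. Nkx6-2 differed by 2.21 between p3 and pMN (95% interval 0.44 to 3.97, limma adjusted p = 0.274), by 1.27 between pMN and p2 (-0.45 to 2.98, adjusted p = 0.647) and by 2.41 between p2 and p0-1 (0.74 to 4.07, adjusted p = 0.284). Leaving out either day 6 library of pMN at 500 nM moved the first to 1.44 (replicate 3) or 2.97 (replicate 1) and the second to 2.03 or 0.50. The step from p0-1 to p2 was shown by 9 of 12 p2 libraries, and DESeq2 called it with an adjusted p of 0.00573.

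Genes listed as markers of the floor plate, the ventral neighbour of p3, also differed with p3. Of 5 such genes 4 were tested (Foxj1 was too low), and all 4 were called higher in p3 against p2 or p0-1, where 1.27% and 1.43% of all genes were called in either direction, and 3 against pMN, where 0.695% were. Their summed level over days 5 and 6 ran from 448 to 12006 in p3, from 190 to 1617 in pMN, from 36.3 to 812 in p2 and from 55.6 to 792 in p0-1. None of the 5 genes was at 0 in all p3 libraries. Foxa2, which is among the called genes, was reported in the paper as expressed in p3 progenitors. The paper also saw little expression of floor plate markers in this culture, even on day 6. Whether the sorted p3 cells included floor plate cells, and what part such cells had in the Nkx6-2 level, was not tested here. Markers of the oligodendrocyte lineage, where Nkx6-2 is also known, had summed medians of 373, 444, 477 and 394 in p3, pMN, p2 and p0-1, with none called in these comparisons.

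**Figure D2:**
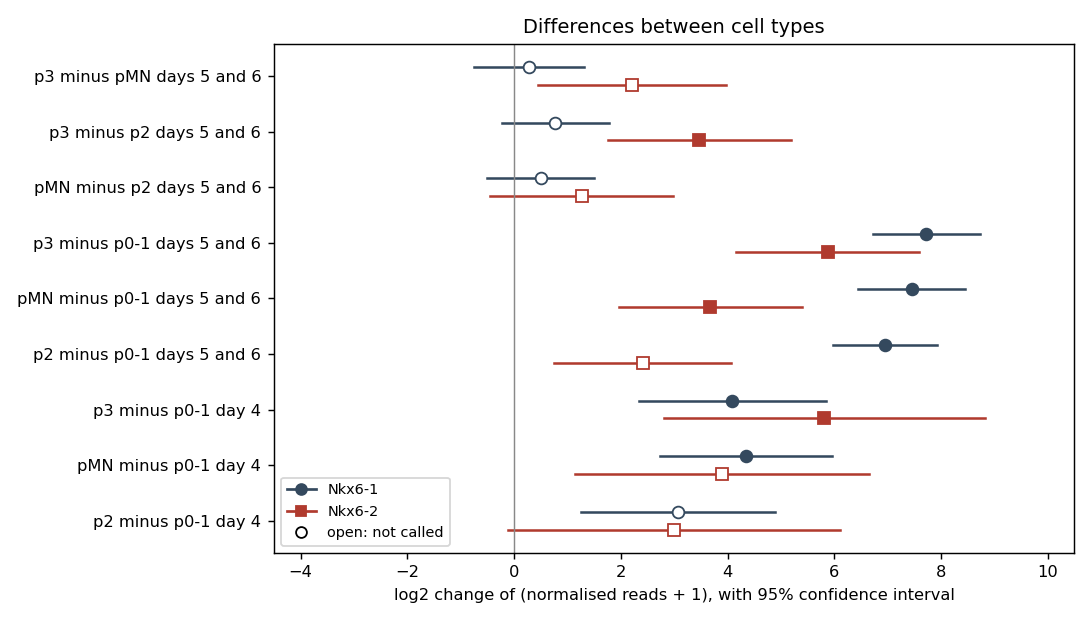
Log2 change of Nkx6-1 (circles) and Nkx6-2 (squares) for the comparisons of cell types over days 5 and 6 and against p0-1 on day 4, with 95% confidence intervals; filled symbols were called. For Nkx6-1 the changes against p0-1 on days 5 and 6 lie between 6.95 and 7.72 and those among p3, pMN and p2 below 1, whereas the changes of Nkx6-2 spread from 1.27 to 5.88.

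The different shapes were compared with the log2 ratio of Nkx6-2 to Nkx6-1 in each library, log2((Nkx6-2 + 1)/(Nkx6-1 + 1)), by two-sided permutation tests over the p3, pMN and p2 libraries of days 5 and 6 (100000 resamples, p adjusted over all 6 pairs of the 4 cell types). The ratio was above 0 in 10 of 11 p3 libraries (mean 1.08 ± 0.84, SD), in 4 of 11 pMN libraries (-0.67 ± 2.26, SD), all of them of day 5, and in 4 of 12 p2 libraries (-1.69 ± 2.88, SD). It was higher in p3 than in pMN by 1.75 (permutation p = 0.00203, adjusted p = 0.00609) and than in p2 by 2.77 (permutation p = 0.00173, adjusted p = 0.00609). Leaving out 1 library moved the difference from pMN to between 1.09, when the pMN library of 500 nM, day 6, replicate 3 (ratio -7.30) was dropped, and 1.96, with adjusted permutation p of at most 0.0105. Between pMN and p2 the difference of 1.02 did not pass 0.05 (permutation p = 0.394, adjusted p = 0.394). The p0-1 libraries had a mean ratio of 2.85 ± 4.19 (SD, n = 12), above 0 in 9 of 12. Many of their values are at or near 0, where the pseudocount of 1 sets the ratio. The sort set the denominator in p0-1, so the ratios of the other types against p0-1 are given as a description only. It also selected p2, but not p3 or pMN, as NKX6.1+. The ratio differences of p3 and pMN from p2 are therefore not independent of the sort.

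Per kilobase of exon, Nkx6-2 averaged 686 and Nkx6-1 329 normalised reads in p3. In pMN and p2 the mean levels were 237 and 152 for Nkx6-2 against 274 and 202 for Nkx6-1. This order depended on the day in pMN, where Nkx6-2 had 319 and Nkx6-1 273 on day 5 and 139 and 276 on day 6. In p2 the levels were 161 and 171 on day 5 and 144 and 232 on day 6. In p0-1 the mean levels were 42.7 for Nkx6-2 and 5.37 for Nkx6-1. The length used for Nkx6-2 was the 1907 exonic bases of its coding and non-coding transcripts together. The exons of the coding transcript alone are shorter and would give higher levels of Nkx6-2. The order of the 2 genes in pMN and p2 therefore depends on the length used.

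**Figure D3:**
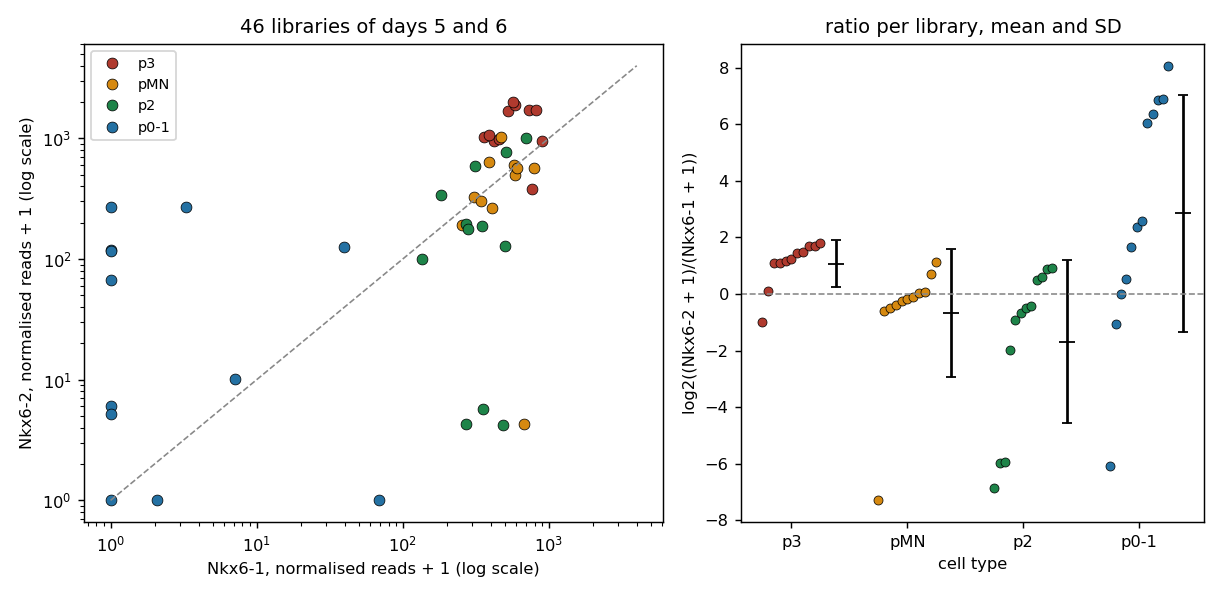
Left, Nkx6-2 against Nkx6-1 in the 46 libraries of days 5 and 6 (normalised reads + 1, log axes, dashed line at equal values). Right, the log2 ratio of Nkx6-2 to Nkx6-1 in each library by cell type with mean and SD; 10 of 11 p3 libraries lie above 0, against 4 of 11 for pMN and 4 of 12 for p2.

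Nkx6-2 varied much more between libraries of a group than Nkx6-1. On the log2 scale its SD within groups was 2.13, larger than that of 96.9% of the 5174 genes with a mean within 2-fold of its own, whose median was 0.83. That of Nkx6-1 was 1.01, larger than that of 28.8% of 4887 such genes. In normalised reads the coefficient of variation of Nkx6-2 was 39.4% in p3, 60.8% in pMN and 112% in p2, against 31.1%, 34.5% and 44.3% for Nkx6-1. Part of this spread came from 4 libraries of p2 and pMN in which Nkx6-2 had 3 or 4 reads and Nkx6-1 had many. They were p2 at 10 nM replicate 3 of day 5 (3 reads against 243) and of day 6 (3 against 455), p2 at 100 nM replicate 1 of day 6 (4 against 295) and pMN at 500 nM replicate 3 of day 6 (3 against 615). These libraries held 8370994 to 9574840 reads in all and 11118 to 12634 genes, within the range of the series. No p2, pMN or p3 library had so few reads of Nkx6-1, whose lowest value there was 134 normalised reads. In p2 the gate selected cells with NKX6.1 protein, so its smaller spread of Nkx6-1 is not independent of the sort.

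Within a cell type the 2 genes did not vary together to a degree that these libraries could show. The deviations of their log2 values from the group means on days 5 and 6 had a Pearson r of 0.061 in p3 (n = 11, permutation p = 0.853), -0.23 in pMN (n = 11, permutation p = 0.508), -0.008 in p2 (n = 12, permutation p = 0.981) and -0.053 in p0-1 (n = 12, permutation p = 0.868). Adjusted over the 4 cell types all were 0.981. Spearman's rho was -0.17, 0.064, 0.12 and -0.071 in the same order (permutation p = 0.614, 0.859, 0.714 and 0.826, each 0.859 adjusted). Without the 2 libraries farthest from the median of Nkx6-1, r was 0.30, -0.66, 0.36 and 0.13. The values of r thus rest on single libraries, and the libraries share depth and RNA quality.

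On day 4, 1 day after SAG was added, Nkx6-1 already separated p0-1 from the other types. It had 744, 222, 143 and 392 normalised reads in p3 (the first at 100 nM, the others at 500 nM). In pMN it had 331 and 533 at 100 nM and 500 and 695 at 500 nM, and in p2 143 at 10 nM and 172 and 498 at 100 nM. In p0-1 it had 28.5 and 11.9 at 0 nM and 23.7, 20.9 and 52.4 at 10 nM, so all 5 libraries held reads. The 11 libraries of the ventral types did not overlap these values. Here too NKX6.1 protein separated p2 from p0-1 in the sort. The change against p0-1 was 4.09 in p3 (SE 0.87, limma adjusted p = 0.000628, 6.02% of genes called) and 4.35 in pMN (SE 0.80, adjusted p = 0.00213, 0.1% called), in 4 of 4 libraries each. In p2 the change of 3.07 (SE 0.90) was shown by 3 of 3 libraries but was not called, with an unadjusted p of 0.00135 and a limma adjusted p of 0.9, where 0.0286% of genes were called. DESeq2 called it, with an adjusted p of 0.00305. Without the library of p3 at 100 nM (replicate 3), the change in p3 was 3.25 with an adjusted p of 0.136. The call of pMN was lost without replicate 3 of p0-1 at 0 nM (4.05, limma adjusted p = 0.0361), without replicate 2 of pMN at 500 nM (4.47, adjusted p = 0.0155) and without its replicate 3 (4.23, adjusted p = 0.0135).

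Nkx6-2 was at its highest in the series in p3 on day 4, with 3429 normalised reads at 100 nM and 3894, 2458 and 1534 at 500 nM. In pMN it had 593 and 425 at 100 nM and 1459 and 942 at 500 nM, and in p2 219 at 10 nM and 862 and 680 at 100 nM. In p0-1 it had 95.2 and 0 at 0 nM and 442, 179 and 245 at 10 nM. All 4 p3 libraries therefore lay above all 12 libraries of the other types. The change between p3 and p0-1 was 5.82 (SE 1.49, limma adjusted p = 0.00571), while the median of all genes in this comparison was -0.37 and 805 of the 840 called genes were lower in p3. It lost its call without replicate 3 of p0-1 at 0 nM (4.17, limma adjusted p = 0.107), replicate 2 or 3 of p0-1 at 10 nM (5.67 and 5.78, adjusted p = 0.0126 and 0.0108), the library of p3 at 100 nM (5.57, adjusted p = 0.136) or replicate 1 of p3 at 500 nM (5.65, adjusted p = 0.0133). The changes of 3.90 in pMN (95% interval 1.14 to 6.66, limma adjusted p = 0.387) and 3.00 in p2 (-0.12 to 6.11, adjusted p = 1) were not called.

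Set against the NMPs of day 3, the step to day 4 separated the genes again. Nkx6-1 had 2 reads in 1 NMP library and none in the others, at most 1.65 normalised reads. The means of day 4 were at least 113-fold higher in p3, 156-fold in pMN, 81.8-fold in p2 and 8.29-fold in p0-1, taking 3 reads per library as the limit in the NMPs. These changes were called in limma for all 4 types, at adjusted p of 5.09e-09, 6.35e-10, 6.66e-07 and 0.00131 for p3, pMN, p2 and p0-1, where 8.43%, 2.53%, 1.53% and 2.16% of genes were called. The p0-1 call was lost without replicate 2 or 3 of the NMPs (3.91 both times, limma adjusted p = 0.0176 and 0.0161) and without replicate 2 of p0-1 at 0 nM (3.84, adjusted p = 0.0141), from a change of 4.14. It was also lost with a pseudocount of 10 (1.70, limma adjusted p = 0.13), with quantile normalisation (2.91, adjusted p = 0.0469) and with only the compared groups fitted (adjusted p = 0.028), where the p2 call was lost too (adjusted p = 0.0248). Nkx6-2 was already present in NMPs, with 135, 12.4 and 72.0 normalised reads. On day 4 it was higher than in NMPs by 5.83 in p3 (SE 1.65, limma adjusted p = 0.0109), just short of the threshold although 4 of 4 libraries lay above all NMPs. It was called under 6 other settings, with adjusted p from 0.000241 to 0.00835, DESeq2 among them. In pMN the change was 3.91 (adjusted p = 0.168), in p2 3.01 (adjusted p = 0.676) and in p0-1 0.013 (95% interval -2.99 to 3.01, limma adjusted p = 1).

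From day 4 to day 6 the Nkx6-1 means of p3, pMN and p2 stayed within the spread of their libraries. In p3 they were 375.4 ± 267 (SD, n = 4), 530.7 ± 131 (n = 6) and 663.8 ± 226 (n = 5) on days 4, 5 and 6. In pMN they were 514.9 ± 149, 489.5 ± 122 and 495.0 ± 231, and in p2 270.9 ± 197, 307.7 ± 124 and 416.1 ± 185. No change between successive days was called. In p0-1, by contrast, Nkx6-1 was read in all 5 libraries of day 4, in 3 of 6 on day 5 and in 2 of 6 on day 6. Its change from day 4 to day 5 was -2.95 (SE 0.72, unadjusted p = 0.000176, limma adjusted p = 0.0257), in 5 of 6 libraries, and was not called. Leaving out replicate 1 of p0-1 at 10 nM of day 5 moved it to -3.64 (limma adjusted p = 0.00248). The change from day 4 to days 5 and 6 was tested against that in p0-1. It was more positive in p3 by 3.63 (SE 1.00, limma adjusted p = 0.0159, 3.73% of genes called), in pMN by 3.10 (SE 0.94, adjusted p = 0.332, 0.0143% called) and in p2 by 3.88 (SE 1.02, adjusted p = 1, 0% called in limma). In the last comparison 269 genes had an unadjusted p below 0.05, edgeR called 0 and DESeq2 226. None of these 3 differences was called for Nkx6-1, although each had an unadjusted p of at most 0.00189. The p0-1 cells were gated as NKX6.1- on every day, and many of their later values were at or near 0. These differences therefore depend on the sort and on the pseudocount, and are no independent finding on the time course. The difference for p3 was called without replicate 1 of p0-1 at 10 nM on day 5 (3.98, limma adjusted p = 0.00301) or without replicate 2 of p0-1 at 10 nM on day 6 (adjusted p = 0.00224).

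The Nkx6-2 means fell from day to day in p3, from 2829 ± 1050 (SD, n = 4) on day 4 to 1545 ± 448 (n = 6) on day 5 and 1024 ± 478 (n = 5) on day 6. In pMN they were 854.9 ± 457 (SD, n = 4), 607.6 ± 233 (n = 6) and 265.0 ± 202 (n = 5). None of these changes was called. In p3 all 6 libraries of day 5 lay below the median of day 4, with a change of -0.97 (95% interval -3.85 to 1.92, limma adjusted p = 0.775), and the change to day 6 was -0.77 (-3.27 to 1.72, adjusted p = 0.902). In pMN all 5 libraries of day 6 lay below the median of day 5, with a change of -2.45 (-4.94 to 0.047, adjusted p = 0.716). It was -0.91 without replicate 3 at 500 nM of day 6, which had 3 reads, and -3.98 without replicate 1. In p2 the means were 587.1 ± 332 (SD, n = 3), 306.4 ± 302 (n = 6) and 274.0 ± 376 (n = 6), and in p0-1 192.4 ± 167 (SD, n = 5), 47.78 ± 108 (n = 6) and 114.9 ± 88.3 (n = 6), with limma adjusted p of at least 0.34 for each step. The changes from day 4 to days 5 and 6 differed from that in p0-1 by 0.064 in p3, -0.23 in pMN and -0.59 in p2, with limma adjusted p of 0.994, 1 and 1. The share of all genes called from day 4 to day 5 was 6.41% in p3, 0.695% in pMN, 0.193% in p2 and 0.337% in p0-1, and from day 5 to day 6 it was 0.0215%, 0.0286%, 0.15% and 0.0645%. In p3 849 of the 895 genes called from day 4 to day 5 were higher on day 5.

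To separate dose from cell type, cell types were compared at 1 SAG concentration over days 5 and 6. At 10 nM, Nkx6-1 was higher in p2 than in p0-1 by 5.33 (SE 0.68, limma adjusted p = 6.31e-06), with 319.4 ± 152 against 19.27 ± 27.8 normalised reads (SD, n = 6 each) and no overlap, where 0.0215% of genes were called. As above, NKX6.1 protein separated these cells in the sort, so this value only checks the gate at 1 concentration. The call was lost with edgeR (4.08, adjusted p = 0.0102) and with the spread estimated from these 12 libraries only (limma adjusted p = 0.355). Nkx6-2 had 125.7 ± 125 and 86.03 ± 106 (SD, n = 6 each) in the same libraries, a change of 1.42 (95% interval -0.93 to 3.77, limma adjusted p = 1). At 100 nM, Nkx6-2 was higher in 6 of 6 p3 libraries than the median of p2, with 1379 ± 434 against 454.8 ± 390 (SD, n = 6 each). Its change of 2.64 (SE 1.17, limma adjusted p = 0.204, 0.752% of genes called) was not called, nor was that of Nkx6-1, 0.60 (95% interval -0.77 to 1.97, adjusted p = 0.695). Between pMN and p2 at 100 nM the changes were 0.16 for Nkx6-1 (95% interval -1.21 to 1.53, limma adjusted p = 0.992) and 0.85 for Nkx6-2 (-1.51 to 3.20, adjusted p = 0.943), with 0.0143% of genes called. The Nkx6-2 means had the other order, with 413.3 ± 179 in pMN and 454.8 ± 390 in p2 (SD, n = 6 each), and edgeR and DESeq2 gave changes of -0.12 and -0.15, so no order of pMN and p2 was shown at this concentration.

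Within a cell type, SAG concentration changed neither gene by the threshold used. The clearest difference was that of Nkx6-1 in p0-1. It had 0 reads in all 6 libraries at 0 nM on days 5 and 6. At 10 nM it had 67.5, 1.09 and 6.09 normalised reads on day 5 and 2.27, 38.7 and 0 on day 6, so 5 of 6 libraries held reads. Their mean was at least 6.83-fold higher than the limit of 3 reads per library at 0 nM. The change was 2.83 (SE 0.68, unadjusted p = 0.000135, limma adjusted p = 0.157) and was not called, while edgeR and DESeq2 called it, with adjusted p of 0.000265 and 5.9e-09. Over all genes 0.0143% were called in this comparison. The mean at 10 nM rested mostly on the libraries with 67.5 and 38.7. The p0-1 cells were gated as negative for NKX6.1 protein, and NKX6.1+ p2 cells were collected at 10 nM but not at 0 nM. An effect of dose and p2 cells that passed the gate thus cannot be told apart. Nkx6-2 in the same p0-1 libraries had 76.69 ± 105 at 0 nM and 86.03 ± 106 at 10 nM (SD, n = 6 each), a change of -0.13 (95% interval -2.48 to 2.23, limma adjusted p = 1).

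In p2, Nkx6-2 had 125.7 ± 125 normalised reads at 10 nM and 454.8 ± 390 at 100 nM (SD, n = 6 each). The change of 2.10 (95% interval -0.26 to 4.45, limma adjusted p = 0.663, 0.0358% of genes called) was shown by 5 of 6 libraries, and that of Nkx6-1 was 0.40 (-0.97 to 1.78, adjusted p = 0.941). From 100 to 500 nM Nkx6-1 changed by 0.28 in pMN (95% interval -1.18 to 1.73, limma adjusted p = 1) and by -0.062 in p3 (-1.52 to 1.39, adjusted p = 0.993). The changes of Nkx6-2 were -1.26 in pMN (-3.75 to 1.24, limma adjusted p = 1) and -0.44 in p3 (-2.94 to 2.05, adjusted p = 0.942). In pMN its means were 413.3 ± 179 (SD, n = 6) at 100 nM and 498.1 ± 379 (SD, n = 5) at 500 nM, and the change turned to 0.28 without replicate 3 at 500 nM of day 6, so it has no set direction. In pMN limma called 0 genes (0%) between these doses, with 657 at an unadjusted p below 0.05, edgeR 0 and DESeq2 442. In p3 0.0286% were called. The dose effects in p3 and pMN differed by -0.34 for Nkx6-1 and 0.82 for Nkx6-2 (limma adjusted p = 0.95 and 0.923), a comparison in which limma called 0% of genes, 1283 had an unadjusted p below 0.05, edgeR called 0 and DESeq2 629.

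Next, the genes whose means over the 25 groups followed each member most closely were listed, by Pearson r of log2 values, as a description. The groups share library preparation and depth. For Nkx6-1 they were Olig2 (r = 0.87), the motor neuron progenitor factor, Ptch1 (0.86), the Shh receptor and a direct target of the pathway, Grrp1 (0.83), Olfml3 (0.82) and H2-Ke6 (0.80). Over days 5 and 6 Ptch1 averaged 4221 ± 869 normalised reads (SD, n = 11) in p3, against 4574 ± 823 (n = 11) for pMN, 2821 ± 1682 (n = 12) in p2 and 996.0 ± 560 (n = 12) in p0-1. It was thus lowest in p0-1 among the sorted types, as Nkx6-1 was, but its mean was also higher in pMN than in p2 (log2 change 0.88, SE 0.20, limma adjusted p = 0.0202, not called). For Nkx6-2 the genes were Timp3 (r = 0.81), which encodes an inhibitor of metalloproteinases, Col18a1 (0.81), which encodes a collagen, Nkx2-9 (0.80), a homeodomain factor of the most ventral progenitors, Olfml3 (0.78) and Dlc1 (0.78). Nkx2-9 averaged 1262 ± 577 (SD, n = 11) in p3, 462.9 ± 364 (n = 11) in pMN and 24.80 ± 39.1 (n = 12) in p2, and was at 0 in p0-1 and NMPs, so it lacked the low level that Nkx6-2 held there. Olfml3 was on both lists, with 1229 ± 394, 570.1 ± 259, 283.1 ± 189 and 77.93 ± 100 in p3, pMN, p2 and p0-1. Nkx6-2 was 40th among the genes most like Nkx6-1 and Nkx6-1 26th among those most like Nkx6-2 (r = 0.67). Timp3, Col18a1 and Nkx2-9 held ranks 1 to 3 for Nkx6-2 with a pseudocount of 10, with Spearman's rho and over the 65 libraries. The other places depended on the measure. Over the 65 libraries Dlc1 was at rank 176, and Olfml3 at rank 23 for Nkx6-2 and 32 for Nkx6-1. With Spearman's rho the 5 genes of Nkx6-1 were at ranks 7 to 21, with Olig2 last.

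**Figure D4:**
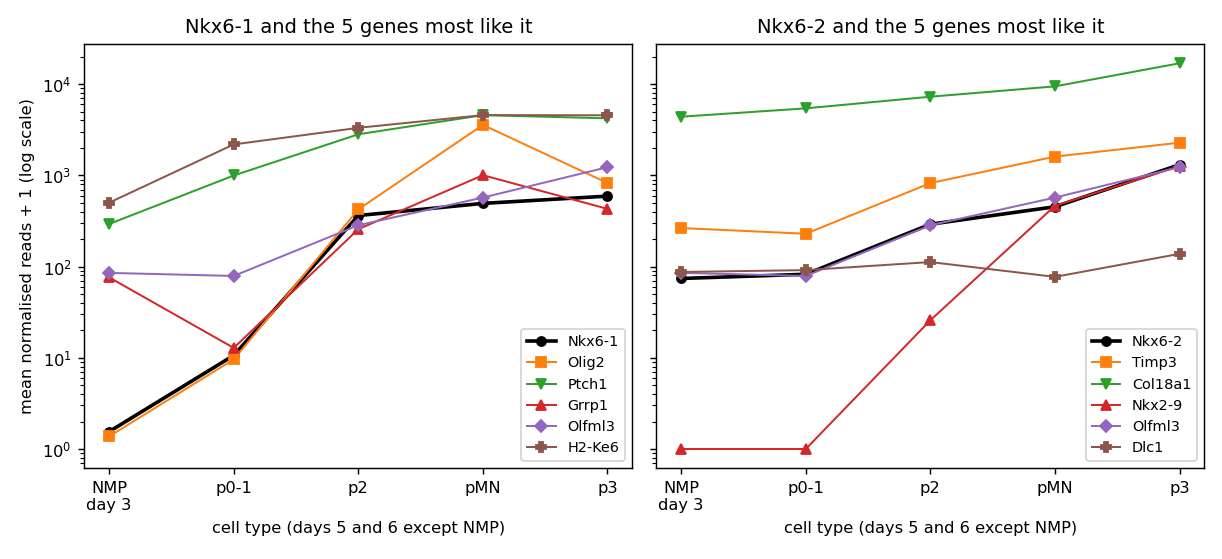
Mean normalised reads + 1 (log scale) of each member (black) and of the 5 genes whose means over the 25 groups correlated best with it, by cell type on days 5 and 6 and in NMPs. The mean of Nkx6-1 is 9.633 in p0-1 and 361.9 to 591.2 in p2, pMN and p3, that of Ptch1 runs from 996.0 in p0-1 through 2821 in p2 to 4574 in pMN, and those of Nkx6-2, Nkx2-9, Timp3 and Col18a1 are highest in p3.

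The other progenitor factors, of which 13 of 14 were tested, give the setting of these boundaries. Nkx2-2, Olig2 and Pax6 are among them, and their proteins were used in the sort. Their calls are included in the counts below but are not independent of the gates. Between p2 and p0-1, where Nkx6-1 has its limit and 0.322% of all genes were called, 1 factor was called higher in p2 and 3 lower, with a median change of 0.021 against -0.054 over all genes. Olig2 was the one higher (6.60, SE 0.79, limma adjusted p = 1.38e-07), and Dbx1 (-7.42, SE 0.64, adjusted p = 1.34e-11), Prdm12 (-4.53, SE 0.84, adjusted p = 0.00122) and Pax3 (-4.07, SE 0.53, adjusted p = 1.04e-06), all markers of more dorsal progenitors, were lower. Between p3 and pMN 2 were higher, Nkx2-2 and Foxa2, and Pax6 was lower, against 0.695% of all genes. Between p3 and p0-1 5 were higher and 6 lower, against 1.43% of all genes. Of the Shh pathway genes, all 7 were tested. Between p2 and p0-1 3 were called higher (Gli1, Ptch1 and Hhip) and 0 lower, with a median change of 1.51. Gli1, a transcription factor and direct target of the pathway, changed by 3.71 (SE 0.45, limma adjusted p = 1.64e-07) and Ptch1 by 1.51 (SE 0.19, adjusted p = 6.11e-07). Between p3 and pMN their median change was -0.80, with 0 called higher and 0 lower. On day 4 Gli1 and Ptch1 were called higher than in p0-1 in all 3 ventral types, by 5.84 to 6.82 and by 2.40 to 3.67. Gli2 was called lower in p3 than in p0-1 on that day (-4.22, SE 1.01, limma adjusted p = 0.00268). In these comparisons of day 4, 6.02%, 0.1% and 0.0286% of all genes were called for p3, pMN and p2. Of the other Nkx genes 2 of 10 had enough reads for a test. Nkx1-2, a marker of NMPs, was called lower in p3 than in p0-1 on day 4 (-4.29, SE 1.09, limma adjusted p = 0.00492). It shared this direction with 805 of the 840 genes called there. Nkx6-3, the other paralog, was among the 8 genes below the filter.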

How the data were processed

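Bulk RNA-seq was made from fixed, sorted cells (SMART-Seq cDNA, ERCC spike-ins). The authors aligned reads with STAR to mm10 plus the ERCC sequences and counted them with featureCounts over refGene genes, ignoring duplicates, which lowers abundant short genes most. Libraries that failed their quality criteria were excluded. The deposited expression signal is these counts divided by 1 size factor per library; 100% of the values above 0 were whole multiples (tolerance 0.001) of the smallest value of their column (0.7172 to 1.359), so the read counts could be recovered. The deposited annotation gives positions as other values.

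Libraries were grouped by the labels. limma 3.58.1 (R 4.3.3), with a variance trend, was fitted to log2(signal + 1) for 13964 genes with a mean of at least 10, with a mean per group in all 65 libraries, and every adjusted p is from it unless another tool is named. The log2 scale understates changes of low values. A direction counts the libraries on that side of the other group's median. Reads carry no molecular identifiers, so limits of 3 reads cover counting error only. No 2 libraries were identical (0 pairs). Permutation tests used scipy 1.17.1. Alternatives were a pseudocount of 10, a minimum mean of 100, no filter, quantile normalisation, array weights, a replicate block, the compared groups alone, edgeR 4.0.16, DESeq2 1.42.0 and leaving out each library. The scripts were tested on simulated data. The named genes were both members, fixed lists (progenitor factors, other Nkx genes, Groucho corepressors, neurons of the ventral domains, Shh pathway, markers of other cells) and the 5 genes most like each member by Pearson r. Members and lists were chosen with earlier results of these data known.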

Additional observations from a re-analysis of the deposited data

Results flagged for a closer look

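In 11 sets of 4 to 6 libraries of 1 cell type and day, each tested for both genes (22 tests), 4 libraries stood apart from the rest by the gap to their nearest neighbour over the range of the set. Chance gives about 1 such set in 20 where the values come from 1 population with a normal spread. The sets pool SAG concentrations, and the flagged sets of p0-1 lie mostly near 0, so this rate need not hold for them. Nkx6-1 had 67.5 normalised reads in p0-1 at 10 nM on day 5, replicate 1, where the next of 6 libraries had 6.09, and Nkx6-2 was at 0 in that library. Nkx6-1 also had 38.7 in p0-1 at 10 nM on day 6, replicate 2, against 2.27 in the next. Olig2 and Nkx2-2, markers of more ventral progenitors, were at 0 in both of these libraries, and Dbx1 had 1843 and 2976. These markers cannot show whether p2 cells were present. Olig2 and Nkx2-2 were also at 0 in p2 at 10 nM on day 5, replicate 1, and Dbx1 comes from p0-1 cells themselves. A part of p2 cells in these values was not tested. Nkx6-2 had 268 in p0-1 at 0 nM on day 5, replicate 2, against 9.14 in the next of 6 libraries. In p2 on day 6 it had 998 in replicate 3 at 100 nM, where the next had 336.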

How the results depend on the processing

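Over 75 values and their alternatives, 1571 of 1745 recomputed values kept their direction and side of the threshold, 75 reversed, and 0 of those 75 came from a called value. The differences of Nkx6-1 and of Nkx6-2 between p3 and p0-1 on days 5 and 6, and those of Nkx6-1 between pMN or p2 and p0-1 on those days, kept their calls in every alternative. The causes of the changes below were not tested. Nkx6-2 is limited by its spread between libraries, and day 4 by its 1 to 3 libraries per group; where 1 library was left in a group, it was assumed to vary like the others. The count of genes called, 45 between p2 and p0-1 over days 5 and 6, was 23 on the recovered reads with edgeR and 632 with DESeq2; between p3 and pMN it was 97, 51 and 782, between p3 and p2 178, 122 and 986, between p3 and p0-1 199, 130 and 887, between pMN and p2 15, 5 and 587, and between pMN and p0-1 134, 99 and 749. With only the compared groups fitted, the counts of p3 minus pMN, p2 and p0-1 were 47, 77 and 109, and that of p2 minus p0-1 was 24. In the other comparisons the counts in limma, edgeR, DESeq2 and limma on the compared groups alone were, on day 4 against p0-1, 840, 740, 3135 and 777 for p3, 14, 10, 623 and 0 for pMN, 4, 2, 211 and 0 for p2. Against NMPs they were 1177, 896, 3410 and 1224 for p3, 353, 167, 964 and 194 for pMN, 214, 118, 451 and 0 for p2, 302, 169, 424 and 204 for p0-1. From day 4 to 5 they were 895, 803, 3187 and 537 in p3, 97, 51, 854 and 1 in pMN, 27, 8, 382 and 53 in p2, 47, 19, 512 and 25 in p0-1, and from day 5 to 6 3, 1, 696 and 7 in p3, 4, 3, 509 and 0 in pMN, 21, 1, 724 and 3 in p2, 9, 4, 488 and 1 in p0-1. At 1 concentration they were 3, 1, 424 and 3 for p2 minus p0-1, 105, 51, 1167 and 11 for p3 minus p2 and 2, 0, 554 and 1 for pMN minus p2, and between concentrations 2, 1, 424 and 1 in p0-1, 5, 1, 645 and 0 in p2 and 4, 0, 665 and 11 in p3. For the change from day 4 to days 5 and 6 minus that of p0-1 they were 521, 594, 2567 and 487 in p3 and 2, 0, 510 and 2 in pMN.

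In the following, values are log2 changes with limma adjusted p unless another tool is named, over days 5 and 6 unless a day is named, and the later change is that from day 4 to days 5 and 6. For Nkx6-1, later changes set against that of p0-1 depend on the sort, as stated above. With a pseudocount of 10, Nkx6-1 lost its call between NMPs and p0-1 of day 4 (1.70, adjusted p = 0.13) and Nkx6-2 gained one between NMPs and p3 of day 4 (5.5, adjusted p = 0.000528). Nkx6-2 reversed between 10 and 0 nM in p0-1 (0.11) and in the later change of p3 minus that of p0-1 (-0.23), and r of both genes in p2 became 0.049. Without a filter, Nkx6-2 lost its calls for p3 minus p2 (3.47, adjusted p = 0.0171), pMN minus p0-1 (3.67, adjusted p = 0.0147) and p3 minus p0-1 on day 4 (5.82, adjusted p = 0.0104), and Nkx6-1 gained one in the later change of p3 minus that of p0-1 (3.63, adjusted p = 0.00942). With quantile normalisation, Nkx6-1 lost its call between NMPs and p0-1 of day 4 (2.91, adjusted p = 0.0469). Nkx6-2 gained calls between NMPs and p3 (7.45, adjusted p = 0.000492) and pMN (5.67, adjusted p = 0.00761) of day 4 and reversed between 10 and 0 nM in p0-1 (0.039). The log2 ratio of pMN minus p0-1, a description since the sort used Nkx6-1, was -3.09 in place of -3.52. With array weights, the call of Nkx6-2 for p3 minus p2 was lost (3.39, adjusted p = 0.0316) and its change between 10 and 0 nM in p0-1 reversed (0.74). Calls were gained by Nkx6-2 between NMPs and p3 of day 4 (6.33, adjusted p = 0.000241) and by Nkx6-1 from day 4 to 5 in p0-1 (-3.02, adjusted p = 0.00325) and in the later change of p3 minus that of p0-1 (3.88, adjusted p = 0.00144).

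With only the compared groups fitted, calls were lost by Nkx6-2 for p3 minus p2 (3.47, adjusted p = 0.0353), pMN minus p0-1 (3.67, adjusted p = 0.0484) and p3 minus p0-1 on day 4 (5.82, adjusted p = 0.0385). Nkx6-1 lost them against p0-1 on day 4 in p3 (4.09, adjusted p = 0.0148) and pMN (4.35, adjusted p = 0.112), between p2 and p0-1 at 10 nM (5.33, adjusted p = 0.355) and against NMPs in p2 (7.21, adjusted p = 0.0248) and p0-1 (4.14, adjusted p = 0.028) of day 4. Nkx6-2 gained a call against NMPs in p3 of day 4 (5.83, adjusted p = 0.00781). With edgeR, calls were lost by Nkx6-2 for p3 minus p2 (2.36, adjusted p = 0.0449), pMN minus p0-1 (3.14, adjusted p = 0.0122) and p3 minus p0-1 on day 4 (4.66, adjusted p = 0.0123), and by Nkx6-1 for pMN minus p0-1 on day 4 (4.32, adjusted p = 0.0106) and p2 minus p0-1 at 10 nM (4.08, adjusted p = 0.0102). Nkx6-1 gained calls between 10 and 0 nM in p0-1 (7.29, adjusted p = 0.000265) and in the later change of p3 minus that of p0-1 (4.57, adjusted p = 0.00644). With DESeq2, Nkx6-2 gained calls for p2 minus p0-1 (2.50, adjusted p = 0.00573) and p3 of day 4 minus NMPs (5.36, adjusted p = 0.000426). Nkx6-1 gained them for p2 minus p0-1 on day 4 (3.10, adjusted p = 0.00305), between 10 and 0 nM in p0-1 (6.74, adjusted p = 5.9e-09), from day 4 to 5 in p0-1 (-3.63, adjusted p = 0.000784) and in the later changes of p3 (4.27, adjusted p = 6.02e-05), pMN (3.79, adjusted p = 0.000849) and p2 (4.53, adjusted p = 0.000266) minus that of p0-1. Nkx6-2 reversed with edgeR and DESeq2 for pMN minus p2 at 100 nM (-0.12 and -0.15), from day 5 to 6 in p2 (0.094 and 0.15), in the later changes of pMN (0.39 and 0.41) and p2 (0.63 and 0.69) minus that of p0-1 and in the dose effect of p3 minus that of pMN (-0.055 and -0.078). Nkx6-1 reversed with DESeq2 from day 5 to 6 in pMN (0.033). With deviations from the cell type mean, r of both genes was -0.013 in p3 and 0.096 in p2. Over 65 libraries in place of group means, r of Nkx6-1 with Nkx6-2 was 0.55.

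The labels number the replicates, and the main fits and permutation tests treated all libraries as independent. Deviations from the group means correlated with a median r of 0.033 over 186 pairs of libraries with the same number, 3 of them above 0.1. Over 358 pairs with different numbers the median was -0.019, with 0 above 0.1. Correlations this weak cannot by themselves tell whether libraries of 1 number came from 1 differentiation. The paper, however, describes sorting several cell types from the same dish. Libraries of 1 number, day and SAG concentration may thus be paired, and the main fits and permutation tests ignored such pairing. With a replicate block, Nkx6-2 gained a call between NMPs and p3 of day 4 (6.04, adjusted p = 0.00835) and reversed in the later change of p3 minus that of p0-1 (-0.097), and no other call of either gene changed. The block moved the count of genes called from 15 to 26 for pMN minus p2, from 14 to 24 for pMN minus p0-1 on day 4, from 3 to 6 for p2 minus p0-1 at 10 nM, from 4 to 7 from day 5 to 6 in pMN, from 4 to 0 between the concentrations in p3 and from 0 to 2 in the dose effect of p3 minus that of pMN, and the others by at most 1.5 times.

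Without 1 library at a time, the changes of Nkx6-1 ran from 3.84 to 4.61 between NMPs and p0-1 of day 4, from 3.25 to 4.39 for p3 and 4.05 to 4.65 for pMN minus p0-1 on day 4, from -3.64 to -2.38 from day 4 to 5 in p0-1 and from 3.33 to 4.47 in the later change of p3 minus that of p0-1. Those of Nkx6-2 ran from 4.17 to 7.46 for p3 minus p0-1 on day 4, from 2.91 to 4.44 for pMN minus p0-1 and from 2.96 to 3.89 for p3 minus p2. The log2 ratio, given here as a description, ran from -2.59 to -1.30 for p3 minus p0-1 and from -4.34 to -2.86 for pMN minus p0-1. Ranges that crossed 0 for Nkx6-1 were -0.035 to 0.86 and -0.24 to 0.11 from day 4 to 5 in p2 and pMN, -1.24 to 0.20 and -0.30 to 0.19 from day 5 to 6 in p0-1 and pMN, -0.060 to 0.35 for pMN minus p2 at 100 nM and -0.31 to 0.19 from 100 to 500 nM in p3. Those for Nkx6-2 were -1.63 to 1.66 between NMPs and p0-1 of day 4, -1.58 to 1.71, -1.88 to 1.42 and -2.24 to 1.06 in the later changes of p3, pMN and p2 minus that of p0-1, -1.20 to 0.81 between 10 and 0 nM in p0-1, -1.71 to 0.15 from day 5 to 6 in p2, -0.19 to 1.67 for pMN minus p2 at 100 nM, -2.79 to 0.28 from 100 to 500 nM in pMN and -0.72 to 2.35 in the dose effect of p3 minus that of pMN. The r of both genes ran from -0.16 to 0.65 in p3, -0.56 to 0.66 in pMN, -0.32 to 0.29 in p2 and -0.18 to 0.084 in p0-1.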

Other observations

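Transcripts of the Groucho corepressors, the partners of Nkx6 proteins, and of genes of ventral neurons were listed beside the members. Of the 6 corepressor genes 5 were in the table and tested. Tle1 was called lower in p3 than in p2 (log2 change -1.36, SE 0.28, limma adjusted p = 0.00166), where 1.27% of all genes were called. None of the 5 was called in the other pairs of cell types on days 5 and 6 or against p0-1 on day 4. Of 11 genes of ventral neurons 6 were tested. Isl1 and Lhx3, factors of motor neurons, were called higher in pMN than in p2, by 7.22 and 4.93 (limma adjusted p = 1.75e-07 and 0.00179). In that comparison 0.107% of all genes were called. The summed level of 6 neuronal markers had a median of 2594 normalised reads in p3, 1911 in pMN, 2769 in p2 and 1661 in p0-1 over days 5 and 6. NMP markers were at 0 there in most libraries, with 262 in the highest p3 library. Summed mesoderm markers reached at most 244 and feeder fibroblast markers at most 659 in any sorted library of those days.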
